A study of Homo sapiens with 6 samples.

Results

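The cytosolic ribosome is built from ribosomal RNA and a set of small, mostly basic ribosomal proteins, most of them present as a single copy. They are named RPS for the small subunit and RPL for the large one. Their genes were taken by symbol (RPL or RPS and a number, with optional A, X, Y, L or digits, plus RPSA and the stalk genes RPLP0, RPLP1 and RPLP2), kept if protein-coding, and each was read from its brightest named array feature. RefSeq lists 87 such genes, of which 53 were measured here, out of 14884 genes tested in all: 35 of the large subunit and 18 of the small one. The other 34, among them RPLP0, RPLP1, RPLP2, RPSA, RPL5, RPL3, RPS2 and RPS27A, were not analysed here. Pseudogenes were left out, 25 of them with a name that starts in RPL or RPS.

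The cells were MOLM14, a line established from human acute myeloid leukaemia and of monocytic character, in which a small interfering RNA (siRNA) was delivered by electroporation. The siATF4 group (3 arrays) received a siRNA against the transcription factor ATF4 and the siCTRL group (3 arrays) a non-targeting pool, both at 70 nM. The comparison asks which transcripts differ when the ATF4 mRNA is targeted. All arrays come from 1 cell line, the labels call them technical replicates, and nothing says they came from separate cultures, so the p-values speak of the spread among these arrays, which may be technical.

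ATF4 is the transcription factor of the integrated stress response. Cells that are starved or stressed use it to induce genes for amino acid supply and tRNA charging. Ribosomal protein mRNAs belong to another arm of the same economy. They carry a 5′ terminal oligopyrimidine (TOP) start, a C followed by an unbroken run of C and T, through which mTORC1 and the RNA-binding protein LARP1 control their translation and stability together. A shortage of ribosomal proteins, or their imbalance, frees RPL11 and RPL5 to bind the ubiquitin ligase MDM2.

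Transcript starts are shown first because TOP is what these genes share at the sequence level, and the rule that picked the genes did not use it. RefSeq promoters (GRCh38.p14, 250 bases before to 50 after the annotated start) were matched for 48 of the 53 genes. RPL30, RPL39L, RPL3L, RPL8 and RPS15A had no entry. A C at the annotated start followed by at least 4 pyrimidines was found in 29 of the 48 (60.4%), against 463 of 9707 promoters of protein-coding genes tested (4.77%). With the C allowed up to 5 bases to either side it was 36 of 48 (75%) against 22.7%. The lines below give 25 bases before and 25 from the start on, 5′ to 3′. Where a pyrimidine tract was found it is in capitals from the matched C on, and any C or T before that C stays in lower case. They are the 5 genes whose siATF4 and siCTRL arrays did not overlap (RPL29, RPS9, RPS15, RPS7 and RPL17), 3 more from the low end of the differences (RPL19, RPL36 and RPS16), and 3 described for their levels by replicate number (RPS6, RPS23 and RPS14).
RPL29, chr3:51995871-51995920, minus strand: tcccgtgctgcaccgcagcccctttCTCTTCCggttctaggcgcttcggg
RPS9, chr19:54200833-54200882, plus strand: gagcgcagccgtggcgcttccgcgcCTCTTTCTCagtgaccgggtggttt
RPS15, chr19:1438371-1438420, plus strand: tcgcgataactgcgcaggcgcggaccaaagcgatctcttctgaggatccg
RPS7, chr2:3575235-3575284, plus strand: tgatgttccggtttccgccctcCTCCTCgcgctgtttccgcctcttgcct
RPL17, chr18:49492441-49492490, minus strand: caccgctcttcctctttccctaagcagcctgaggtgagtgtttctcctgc
RPL19, chr17:39200258-39200307, plus strand: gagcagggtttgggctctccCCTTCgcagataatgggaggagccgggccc
RPL36, chr19:5690270-5690319, plus strand: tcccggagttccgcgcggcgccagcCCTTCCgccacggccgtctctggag
RPS16, chr19:39435925-39435974, minus strand: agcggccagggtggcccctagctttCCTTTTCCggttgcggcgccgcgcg
RPS6, chr9:19380212-19380261, minus strand: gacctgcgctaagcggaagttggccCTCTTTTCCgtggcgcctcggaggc
RPS23, chr5:82278330-82278379, minus strand: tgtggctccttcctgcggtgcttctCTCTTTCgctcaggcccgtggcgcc
RPS14, chr5:150449715-150449764, minus strand: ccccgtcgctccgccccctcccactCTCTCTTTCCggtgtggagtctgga

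The matched C is the annotated first base in RPL29, RPS9, RPL36, RPS16, RPS6, RPS23 and RPS14, and lies within 5 bases of it in RPS7 and RPL19. In RPS7 and RPL19 that C is inside a longer run of C and T that begins further upstream. The run of RPL19 ends before the annotated start. RPS15 and RPL17 have none in that window. Among the printed genes those with a tract lay on both sides of the siRNA comparison. Over the genes with a promoter entry the median log2 difference was -0.04 for the 36 with a tract within 5 bases and 0.00 for the 12 without. This split depends on the annotated start, and RPS15 and RPL17 have runs of C and T outside the window. Whether the annotated start is the one used in these cells was not analysed.

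Motifs anywhere in these promoter windows were searched on both strands. CCGGAAG, a site of the ETS family factor GABPA, was in 14 of 48 (29.2%) against 15.6% of tested promoters, and AAGATGGC, a YY1 site, in 5 (10.4%) against 4.34%. TATAAA was in 4 (8.33%) against 8.19% and CCAAT in 15 (31.2%) against 36.2%. Of the motifs tied to ATF4 and its relatives, the cyclic AMP response element TGACGTCA was in 1 promoter, that of RPL18 (2.08%, against 2.72%), and the C/EBP-ATF element TGATGNAAT in 0 of 48, against 0.567%. A match is a string of letters and not a measured site, and its lack says only that these letters are not in this window.

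**Figure D1:**
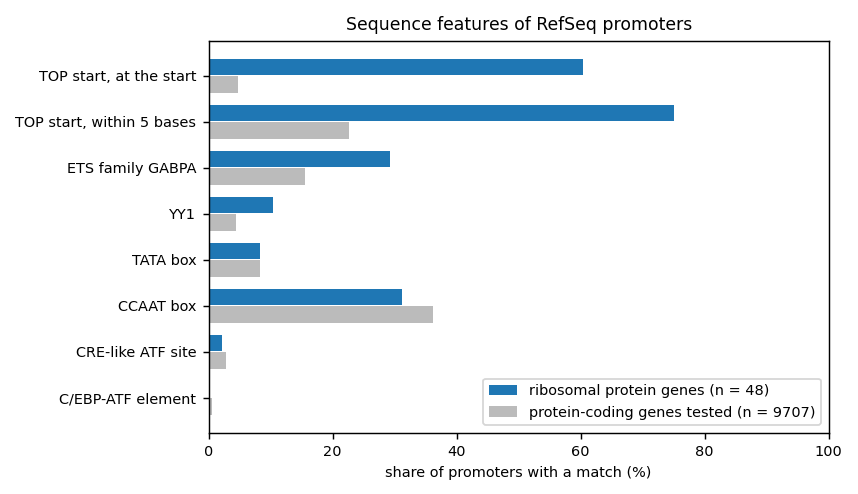
Share of RefSeq promoters (x axis, %) with each sequence feature, for 48 ribosomal protein genes (blue) and 9707 tested protein-coding genes (grey). The TOP start at the annotated first base stands at 60.4% against 4.77%, while the TATA box stands at 8.33% against 8.19%.

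Array medians of log2 signal lay between 3.88 and 3.96, and precision is limited by the number of arrays. ATF4 itself stood at 7.72, 7.88 and 8.14 after its siRNA, against 8.67, 8.64 and 8.85 in siCTRL, so the groups did not overlap. Its log2 difference was -0.80 (SE 0.14), or 57.4% of control, with a limma adjusted p of 1.00. Of 16 myeloid leukaemia markers fixed for the line, 10 were measured, with LYZ at 9.94, FLT3 at 9.07 and MPO at 8.88 over all arrays and CD14 at 3.61, below the array medians. The 3 erythroid markers measured averaged 4.03 to 4.19 by array and the 5 lymphoid markers 4.61 to 5.05, with NKG7 highest among these at 7.13.

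The ribosomal protein transcripts differed little between siATF4 and siCTRL. None of the 53 genes passed limma's test at an adjusted p below 0.05 (0% of all genes did), and 1, RPL29, lay at an unadjusted p below 0.05, where 1.46% of all genes lay. The mean was lower with siATF4 for 30 genes and higher for 23 (56.6% lower, where 46.2% of all genes were lower). The median log2 difference was -0.02 over the 53 and 0.01 over all genes, and the single differences ran from -0.38 to 0.31. Differences beyond 1.2-fold either way were seen for 6 of the 53 (11.3%) and for 10.7% of all genes. The large subunit had 19 lower and 16 higher (median 0.00) and the small subunit 11 lower and 7 higher (median -0.04).

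The range of differences that the spread among these arrays allows is given by limma's 95% intervals. They are not adjusted for the number of genes and leave out the replicate number. Nor do they bound differences between separate cultures. For 41 of the 53 genes the whole interval lay within 1.5-fold either way, and for 52 within 2-fold. The exception at 2-fold was RPS27L, whose interval ran from 66.6% to 215% of control. The 12 genes whose interval passed 1.5-fold were RPL19, RPL22, RPL36, RPL39, RPS15, RPS15A and RPS16 on the low side, RPL8, RPL22L1, RPL39L and RPS23 on the high side, and RPS27L on both. The interval's median distance to either side was 0.31 on the log2 scale.

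**Figure D2:**
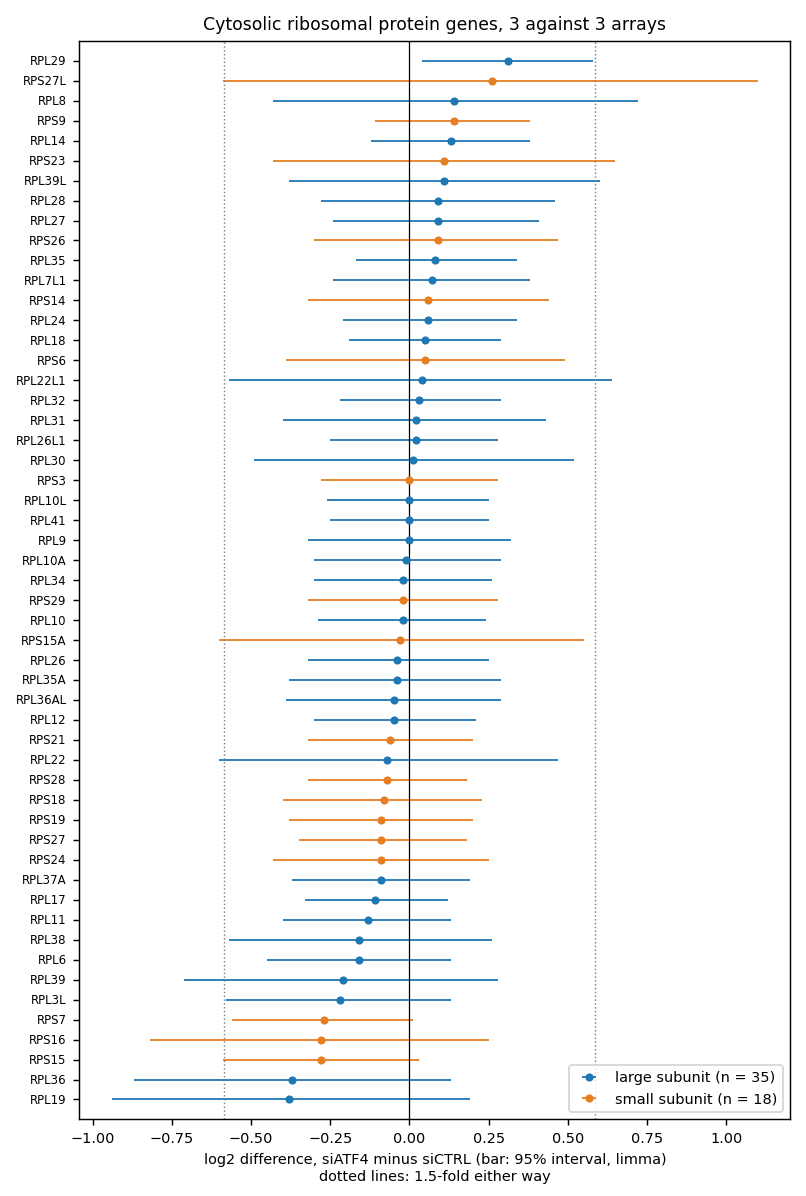
Log2 difference (siATF4 minus siCTRL, x axis) of each of the 53 genes with its 95% interval from limma, large subunit in blue and small subunit in orange, with dotted lines at 1.5-fold. The points run from -0.38 (RPL19) to 0.31 (RPL29), and RPL29 is the gene whose interval (0.04 to 0.58) leaves out 0.

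The siATF4 and siCTRL arrays did not overlap for 5 of the genes. That is 9.43% of the family, where 5.89% of all genes showed no overlap. They were lower with siATF4 for 3 (5.66%, where 2.59% of all genes were) and higher for 2 (3.77%, where 3.3% of all genes were). Lower at each of the 3 replicate numbers were 6 of the 53 (11.3%, against 9.2% of all genes), and higher at each were 7 (13.2%, against 14.4%). For a single gene the two-sided exact permutation test of 3 arrays against 3 cannot go below p = 0.1, and each of these 5 stands at that value.

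RPL29, a large-subunit protein also known for binding heparin, stood at 7.95, 7.77 and 7.83 with siATF4, against 7.45, 7.50 and 7.67 in siCTRL. Every siATF4 array was above every siCTRL array, by 0.50, 0.27 and 0.15 within replicate numbers 1, 2 and 3. The mean was 7.85 ± 0.09 against 7.54 ± 0.12 (SD, n = 3 each), a log2 difference of 0.31 (SE 0.11), or 124% of control with an interval of 103% to 149%. By limma its unadjusted p was 0.0306 and its adjusted p 1.00. The unadjusted p was above 0.05 without siATF4 replicate 1 or 3, without siCTRL replicate 1 or 2, and with a trended and robust prior.

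RPS9, an early-assembling small-subunit protein, was the other gene higher without overlap. It read 7.64, 7.54 and 7.58 with siATF4, against 7.51, 7.35 and 7.50 in siCTRL, a log2 difference of 0.14 (SE 0.10). The gap between the lowest siATF4 and the highest siCTRL array was small beside the spread within siCTRL.

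Among those lower without overlap, RPS15, which sits in the head of the small subunit, read 10.04, 10.39 and 10.38 with siATF4, against 10.51, 10.55 and 10.60 in siCTRL. The log2 difference was -0.28 (SE 0.13), 82.1% of control with an interval of 66.3% to 102%. The siATF4 replicate 1 array was the lowest, and without it the difference was -0.17. RPS7, a small-subunit protein that can bind MDM2 and is mutated in some cases of Diamond-Blackfan anaemia, read 5.16, 4.99 and 5.33 against 5.46, 5.44 and 5.40. Its difference was -0.27 (SE 0.12), 82.7% of control, with the siCTRL arrays tightly together and the siATF4 arrays spread below them. RPL17, which lines the tunnel through which the new peptide leaves, read 7.76, 7.78 and 7.80 against 7.85, 7.93 and 7.89. The separation of RPL17 was complete but slight, -0.11 (SE 0.09).

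**Figure D3:**
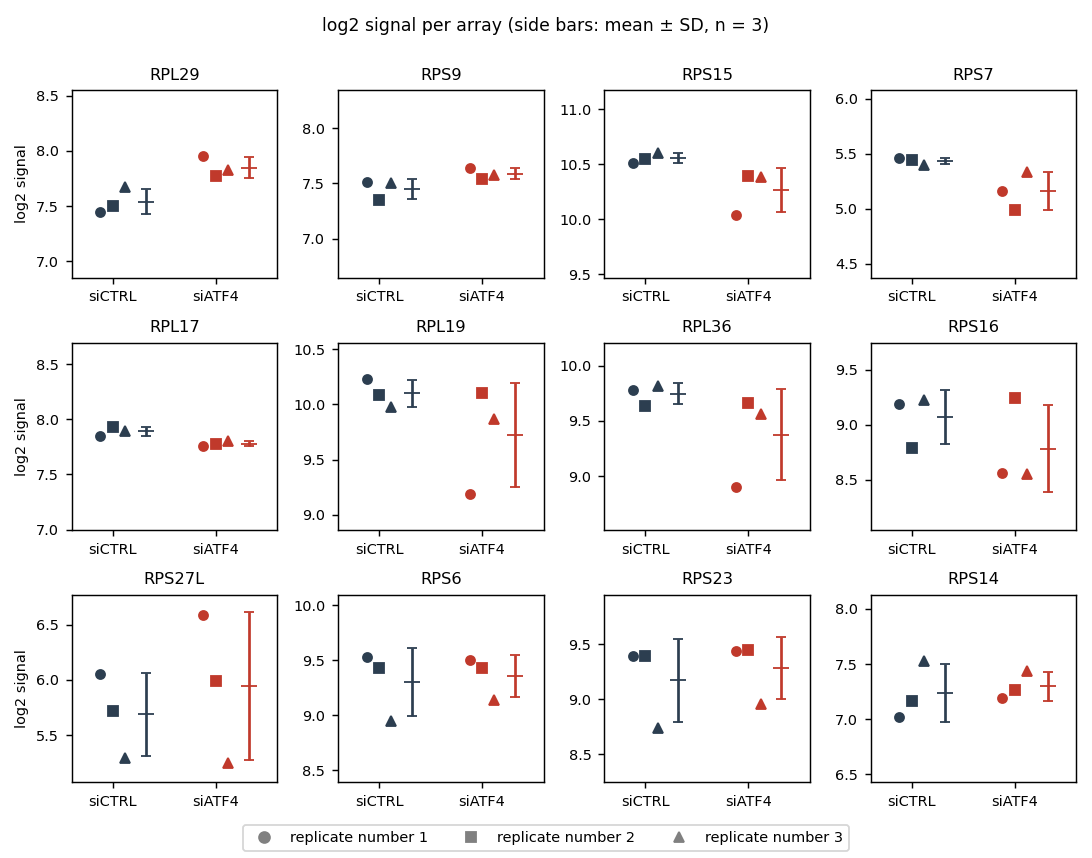
Log2 signal (y axis, the same span in every panel) of 12 ribosomal protein genes on the 3 siCTRL arrays (dark) and the 3 siATF4 arrays (red), with the replicate number given by the symbol and mean ± SD beside each group. RPL29 and RPS9 sit higher and RPS15, RPS7 and RPL17 lower with siATF4, the siATF4 replicate 1 array stands low in RPL19 and RPL36, and number 3 (triangles) is low in both groups in RPS27L, RPS6 and RPS23.

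The lowest differences of the family, those of RPL19 and RPL36, rested mostly on 1 array. RPL19, which forms a bridge between the subunits, read 9.19, 10.10 and 9.87 with siATF4, against 10.23, 10.09 and 9.98 in siCTRL. Its siATF4 replicate 1 array lay 0.68 below any other, and the difference of -0.38 (SE 0.24) became -0.11 without it. RPL36 showed the same shape, with 8.90, 9.66 and 9.56 against 9.78, 9.64 and 9.82. Its difference of -0.37 (SE 0.21) became -0.14 without that array, which lay 0.66 below the next.

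RPS16, whose tail reaches toward the tRNA in the small subunit, read 8.56, 9.24 and 8.55 with siATF4, against 9.19, 8.79 and 9.23 in siCTRL. Within numbers 1, 2 and 3 the differences were -0.63, 0.45 and -0.68, so its mean difference of -0.28 (SE 0.23) joins opposite values. RPL3L, the striated-muscle counterpart of RPL3, stood at 4.70 ± 0.12 against 4.92 ± 0.24 (SD, n = 3 each), and its -0.22 (SE 0.15) became -0.09 without siCTRL replicate 2.

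The siATF4 replicate 1 array was the lowest of the 6 for 14 of the 53 genes (26.4%), and it was the lowest for 23.6% of all genes. RPL22 and RPS15 were there 0.41 and 0.35 below the next array. The same array was the highest for 12 of the 53 (22.6%, against 22.8% of all genes). On it the myeloid marker MPO stood far from the rest too, at 5.58 where the other arrays had 8.45 to 10.45, and CSF1R stood at 8.18 where they had 5.05 to 6.57. The part of such differences in the ribosomal protein values was not tested.

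Arrays of the same replicate number shared high or low values in part of the family, as in genes at large. The range between the means of the 3 numbers had a median of 0.18 over the family and 0.25 over all genes. It exceeded the size of the siRNA difference for 42 of the 53 (79.2%) and for 85.8% of all genes. Both arrays of number 1 lay above the other 4 for 9 genes (17.0%, against 8.51% of all genes) and below them for 0 (against 7.36%). For number 2 it was 5 above and 5 below (9.43% each, against 8.12% and 9.27%). For 13 genes (24.5%) both arrays of number 3 lay below the other 4, where 12.5% of all genes did so. Both lay above the other 4 for 2 genes (3.77%), RPS14 and RPL39L, where 16.7% of all genes did.

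These 13 genes come from both subunits: RPL8, RPL10A, RPL12, RPL22L1, RPL27, RPL30, RPL38, RPL41, RPS6, RPS15A, RPS23, RPS27L and RPS29, named after their values were seen. The mean of their number 3 arrays minus that of the others ran from -0.82 (RPS27L) to -0.11 (RPL41) on the log2 scale. RPS27L, a paralogue of RPS27, read 6.59, 5.99 and 5.25 with siATF4, against 6.05, 5.72 and 5.29 in siCTRL. Its number 3 arrays nearly coincide while those of number 1 are far apart.

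RPS6, the small-subunit protein phosphorylated by the S6 kinases below mTORC1, read 9.50, 9.43 and 9.14 with siATF4, against 9.53, 9.43 and 8.95 in siCTRL. RPS23, at the decoding centre, read 9.44, 9.45 and 8.96 against 9.39, 9.39 and 8.74. RPL8, near the peptidyl transferase centre, read 8.92, 8.81 and 8.14 against 8.78, 8.43 and 8.24. In all of these the number 3 arrays are low in both groups and the siRNA groups overlap.

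RPS14, whose loss on chromosome 5 underlies the anaemia of the 5q- syndrome, ran the other way, with 7.19, 7.26 and 7.44 with siATF4, against 7.02, 7.16 and 7.53 in siCTRL. Its log2 difference between siRNAs was 0.06 (SE 0.16).

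Myeloid marker levels differed by number as well. The 10 measured markers averaged 7.47, 7.24 and 6.42 with siATF4, against 7.51, 7.19 and 6.43 in siCTRL, low on both arrays of number 3. MPO, among them, was highest there, at 10.45 and 10.17 against 5.58 to 9.53 on the rest. The mitochondrial ribosomal protein genes averaged 7.18, 7.12 and 7.22 against 7.18, 7.09 and 7.20, with no low value at number 3. The part of the marker levels in the ribosomal protein values was not tested.

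Over the 53 genes the mean level was 8.21, 8.28 and 8.17 on siATF4 arrays 1 to 3 and 8.33, 8.23 and 8.19 on siCTRL arrays 1 to 3. The siCTRL replicate 1 array was the high one: 44 of the 53 genes (83.0%) were there above their own 6-array mean, against 46.4% of all genes. Without that array the median difference over the family was 0.01. It lay between -0.07 and 0.01 with each array left out in turn.

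With the replicate number as a block in limma, again 0 of the 53 passed the adjusted threshold (0% of all genes) and RPL29 alone lay at an unadjusted p below 0.05 (3.12% of all genes did). The SE was smaller with the block for 31 of the 53 genes, and its median went from 0.13 to 0.12. The largest SE was 0.35 (RPS27L) without the block and 0.24 (RPS16, 0.23 without it) with the block. Among genes low at number 3, RPS27L had an SE of 0.14 with the block in place of 0.35. RPS23 had 0.11 in place of 0.23 and RPL8 0.13 in place of 0.24.

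**Figure D4:**
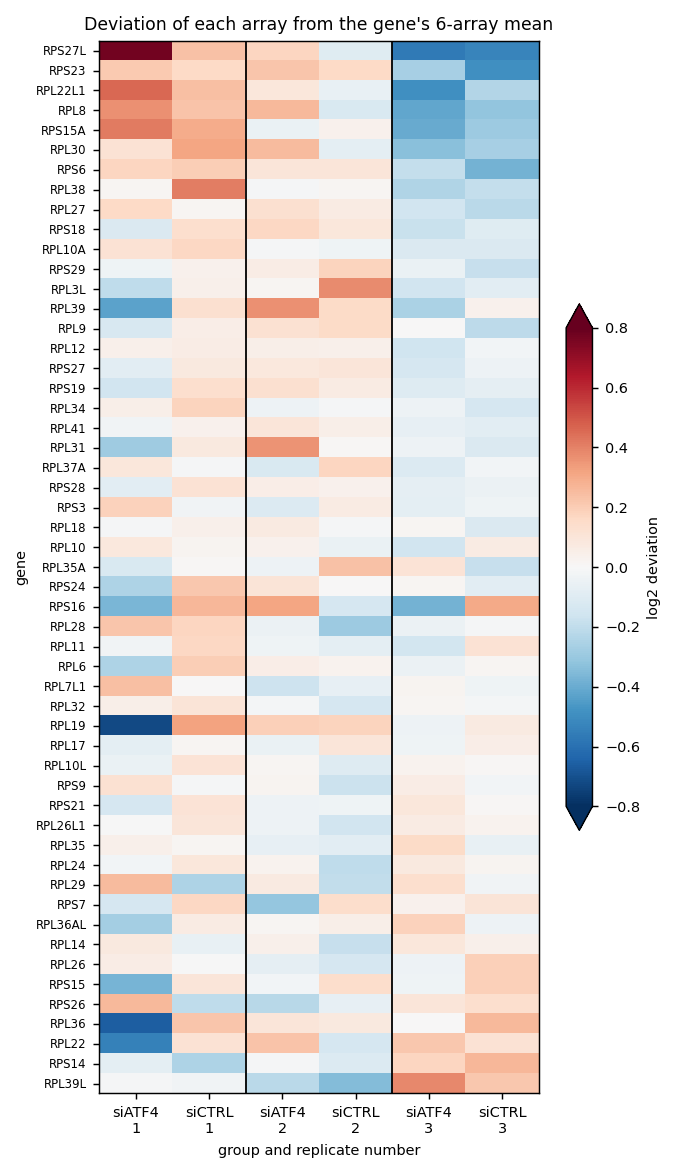
Deviation of each array (columns, paired by replicate number) from the gene's mean over 6 arrays (colour, log2, clipped at 0.8 either way) for the 53 genes (rows), ordered by number 3 against numbers 1 and 2. The upper rows, such as RPS27L, RPS23 and RPL8, are blue in both number 3 columns, and isolated dark cells in RPL19, RPL36 and RPL22 mark siATF4 replicate 1.

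RPS7 is described above, and the values of other genes known from blood disease or MDM2 binding follow. RPL11, the MDM2-binding large-subunit protein, read 9.33, 9.32 and 9.21 with siATF4, against 9.52, 9.28 and 9.47 in siCTRL, a difference of -0.13 (SE 0.11). RPS19, the gene most often mutated in Diamond-Blackfan anaemia, was at -0.09 (SE 0.12) and its interval ran from 76.8% to 115% of control. RPS26, at the channel where mRNA leaves the ribosome, was at 0.09 (SE 0.16), with 6.95 on siATF4 replicate 1 and 6.47 to 6.83 on the other arrays, and it was at -0.02 without that array. RPL26, a large-subunit protein, was at -0.04 (SE 0.12) and RPL10, a late-joining protein mutated in T-cell leukaemia, at -0.02 (SE 0.11).

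The differences of RPS3, RPL24, RPL38 and RPL14 ran from -0.16 to 0.13, with RPL14 named for its value and not for a role. RPS3, at the entry of the mRNA channel, was at 0.00 (SE 0.12), and RPL24 at 0.06 (SE 0.12). RPL38, tied to the translation of HOX mRNAs in the embryo, was at -0.16 (SE 0.18), of which the siCTRL replicate 1 array (7.69, the others 7.04 to 7.30) carried most: without it the value was 0.01. RPL14 was higher by 0.13 (SE 0.10), with 7.39 to 7.44 on the siATF4 arrays against 7.17 to 7.39, so that the groups just met.

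Paralogues that stand beside a main gene make up 8 of the 53, and the groups overlapped for each of them (RPL22L1, RPS27L, RPL3L, RPL39L, RPL36AL, RPL10L, RPL26L1 and RPL7L1). RPL22 was at -0.07 (SE 0.23) and RPL22L1, which RPL22 represses, at 0.04 (SE 0.26), and without siATF4 replicate 1 they were at 0.19 and -0.19. Their arrays spread in different ways: RPL22 was low on siATF4 replicate 1 (5.29, the others 5.70 to 6.06), and RPL22L1 read 7.10, 6.73 and 6.15 against 6.88, 6.58 and 6.41. RPS27 was at -0.09 (SE 0.11) beside 0.26 (SE 0.35) for RPS27L, which was at -0.07 without siATF4 replicate 1. RPL39, of the exit tunnel, was at -0.21 (SE 0.21) beside 0.11 (SE 0.21) for RPL39L, its testis-enriched copy. Without siATF4 replicate 1 RPL39 was at -0.05, and without siATF4 replicate 3 RPL39L was at -0.06. RPL10L, a copy active in testis, read 3.10 to 3.31 on all arrays, below each array's median. RPL26L1 was at 0.02 (SE 0.11), RPL36AL at -0.05 (SE 0.14) and RPL7L1, which acts in ribosome assembly, at 0.07 (SE 0.13).

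For genes with several features the features did not always side together. RPL19 was at -0.38 on its brightest feature and 0.06 on the other, and RPL39 at -0.21 and 0.16. The 5 features of RPL41, which encodes a very short basic peptide, gave 0.00 on the brightest and -0.14, -0.20, -0.27 and 0.10 on the rest. RPS18 had -0.08 and -0.07. RPL41, RPS27, RPL12 and RPS28 averaged over 12 in log2 signal, and saturation of these features was not analysed. Ribosomal protein genes have many near-identical pseudogene copies, and which of these each feature also detects was not analysed here.

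Genes around ribosome production were read from the same fit. Counts here are of genes at an unadjusted limma p below 0.05, since 0 in any list passed the adjusted threshold. Among all genes 46.2% were lower with siATF4 and 53.8% higher, and 1.46% reached that unadjusted level. Of 44 measured nucleolar assembly factors 1 reached it, HEATR1, which supports transcription and processing of ribosomal RNA, with -0.30 (SE 0.10), lower without overlap. The list's median was 0.01, with EFL1, a GTPase of late large-subunit maturation, at 0.30 (SE 0.23), or 0.05 without siATF4 replicate 1. Of 15 chaperones and importers of ribosomal proteins 0 reached it (median 0.02), with IPO9 at 0.27 (SE 0.21; 0.15 to 0.45 with each array left out) and HEATR3 at 0.26 (SE 0.13; 0.19 to 0.36). Of 3 RNA polymerase I genes 0 did (median 0.02), with RRN3 at 0.29 (SE 0.19), or 0.12 without siCTRL replicate 2, and POLR1F at 0.02 (SE 0.16).

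Of 10 other genes with TOP transcripts, GAS5 among them, 7 were lower and 3 higher (70.0% lower, against 46.2% of all genes). IPO7 and NAP1L1 are in this list and also in that of the chaperones and importers. The median over the 10 was -0.03, with 0 at that unadjusted level. The elongation factors EEF1D and EEF2 were at -0.23 (SE 0.16) and -0.21 (SE 0.13). EEF1D was at -0.08 without siCTRL replicate 1 and EEF2 at -0.14 without siATF4 replicate 1. The list's median was 0.02 without siATF4 replicate 1. FAU, which encodes a ubiquitin-like protein fused to a small-subunit protein and is not matched by the symbol rule, was at 0.10 (SE 0.11). Of 15 regulators of growth and ribosomal protein mRNA 10 were higher and 5 lower (66.7% higher, against 53.8% of all genes). Their median was 0.11, and 0.02 to 0.08 with each array left out. Among them were EIF4EBP1, the translation repressor, at -0.28 (SE 0.22), or -0.09 without siATF4 replicate 3, and MXD1, an antagonist of MYC, at -0.22 (SE 0.31), or 0.03 without siATF4 replicate 1. Of 17 genes for stalled ribosomes 0 reached it (median 0.08), with GCN1 at -0.30 (SE 0.22) and the stress kinase MAP3K20 at 0.24 (SE 0.22). GCN1 was at -0.05 without siATF4 replicate 1 and MAP3K20 at 0.10 without siATF4 replicate 3.

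The mitochondrial ribosomal proteins, the counterpart family in the mitochondrion, had 30 lower and 43 higher of 73 (58.9% higher, against 53.8% of all genes). Their median was 0.02. At an unadjusted limma p below 0.05 was 1 gene (1.37%, against 1.46% of all genes), MRPS23 at 0.34 (SE 0.12). MRPS30 had their lowest value at -0.31 (SE 0.14), or -0.18 without siATF4 replicate 1. Of 14 measured genes of amino acid supply, tRNA charging and stress response that ATF4 is known to regulate, 14 were lower (46.2% of all genes were). Their median was -0.65, and 8 (57.1%, against 1.46% of all genes) lay at an unadjusted limma p below 0.05. PSAT1, of serine synthesis, was at -1.01 (SE 0.30) and the secreted stress protein STC2 at -0.92 (SE 0.21). The siCTRL replicate 3 array was the highest for 13 of the 14 (92.9%, against 17.0% of all genes). Without it the list's median was -0.41 and PSAT1 was at -0.64. Their groups did not overlap, lower with siATF4, for 7 of 14 (50%), where 2.59% of all genes did so. All lists were chosen with earlier results of these arrays known, and the difference between lists was not tested.

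**Figure D5:**
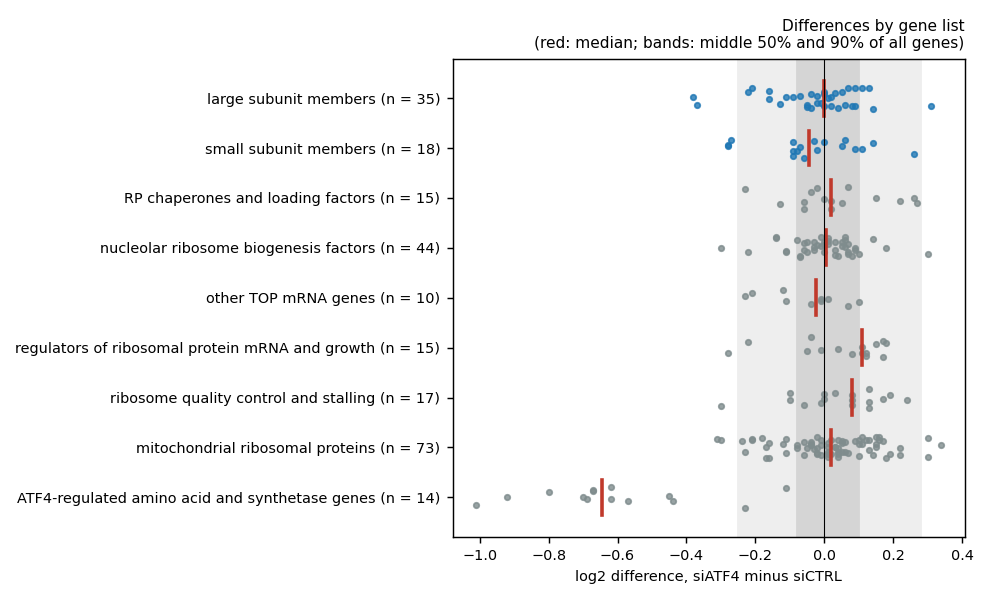
Log2 difference (siATF4 minus siCTRL, x axis) of every measured gene (points) in 9 lists (rows), with the list median in red and grey bands for the middle 50% and 90% of all 14884 genes. The ribosomal protein medians (0.00 for the large subunit, -0.04 for the small) lie inside the inner band, which runs from -0.08 to 0.10, and the ATF4-regulated median lies at -0.65.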

How the data were processed

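Total RNA (100 ng) of 6 MOLM14 samples was hybridised to Affymetrix whole-transcript arrays (labels' protocols). The table the authors deposited has 53617 features and was read as log2 signal, from the range of its values. Per the submitters' processing notes, Partek was used. Which version, how background was corrected, how arrays were normalized and which log base was taken are not given in the sources used here. Features with 1 gene symbol (16098) were named from the platform's annotation, and the brightest stood for a gene. The RefSeq table (GRCh38.p14) gave the gene type. Groups were compared with limma 3.58.1 in R 4.3.3 (lmFit, eBayes, group as the only term, no filter on dim genes), with Benjamini-Hochberg adjustment over 14884 genes and a threshold of 0.05. The fit was run on simulated data with independent noise and planted changes larger than any member's difference. That run does not speak of smaller changes or of values shared by replicate number. Differences are siATF4 minus siCTRL, SE is limma's moderated error and SD is over 3 arrays.

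Deviations from the group means correlated at 0.195, 0.399 and 0.619 between arrays of replicate numbers 1, 2 and 3, each over the limit of 0.1. The numbers were therefore used as a pairing in the replicate-block fit, from the data and not from the labels. The main fit, with its SEs, intervals and p-values, and the permutation test left this pairing out. siATF4 replicate 2 correlated at 0.476 with siCTRL replicate 1. The genes and lists were chosen with earlier results of these data known. Genes named are ATF4, a fixed set of members by role, the 6 highest and 6 lowest members, and the 2 largest differences of each related list. One related list is not reported here. Others were named after their values were seen, as were the motifs searched.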

Additional observations from a re-analysis of the deposited data

How the results depend on the processing

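No ribosomal protein gene, and no gene at all, was called by limma at an adjusted p below 0.05 under any alternative: array weights, quantile normalization, a trended and robust prior, equal medians, the replicate block, a gene's features averaged, every feature tested, the dimmest 33% of genes dropped, an adjusted threshold of 0.01, and each array left out. Unadjusted, 1 member and 218 genes lay below 0.05. Without siATF4 replicate 2 the members were 4, RPL19, RPL29, RPL39 and RPS16 (2.65% of all genes lay there). RPS7 joined RPL29 with array weights (2.36% of all genes) and quantile normalization (1.76%). Without siATF4 replicate 3 RPS7 was the only member (2.3%). Members were 0 without siATF4 replicate 1, without siCTRL replicate 1 or 2, and with the trended and robust prior (1.02% to 1.36% of all genes). The replicate block changed no call, with 1 member and 464 genes below 0.05 unadjusted and a lower count of 30 as before. Leaving out each array moved the count of lower members between 26 and 35 (18 to 27 higher), and array weights gave 36 lower and 17 higher. The median over the members stayed between -0.07 and 0.01, over the large subunit between -0.04 and 0.05 and over the small subunit between -0.12 and -0.01. With array weights the stalled-ribosome list had a median of 0.01. With each array left out the nucleolar list lay between -0.04 and 0.04 and the growth regulators between 0.02 and 0.08. The direction of at least 27 of the 53 members changed under 1 or more alternatives. That count leaves out RPL9, RPL10L, RPL41 and RPS3, whose differences round to 0.00. Each of these also took both signs with single arrays left out, with a range of -0.11 to 0.07 for RPL9. The cause was not tested. No background signal was analysed here, which leaves dim members less certain.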
